A study of Sus scrofa with 24 samples.

Results

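The spleens of 3 Meishan pigs at 28 days after birth (28d) were compared with the spleens of 3 Meishan pigs at 1 day after birth (1d), across 3000 circRNAs. The 28d and 1d libraries are 6 of the 24 libraries of a developmental series with 8 stages from 1d to 180d, 3 pigs a stage and 1 library per pig. All pigs were healthy, untreated and housed on the same standard diet, no genotype other than the breed was given, and each stage was a different set of animals, so that age was compared between pigs and not within them. The libraries were made from whole spleen, a mixture of lymphocytes, macrophages, red cell precursors and stroma, and the spread between pigs of a stage is the error of every comparison. Members were all circRNAs of the table, and 28d minus 1d was the only contrast used to call them.

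CircRNAs are closed RNA loops made when the end of an exon is spliced to the start of the same exon or of one upstream, and most come from exons of protein-coding genes, here called host genes. They have no free ends, so exonucleases that degrade linear RNA spare them. A read over the back-splice junction counts the loop and not the linear mRNA of the host. The spleen filters blood and mounts responses to blood-borne antigens, and in young mammals it also makes red cells until the bone marrow takes over. B and T lymphocytes fill its white pulp after birth, and genes induced by interferon, the main antiviral cytokine, are active in many of its cells.

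The junction sequences of the circRNAs with the smallest p-values whose ends matched the exon ends of a single gene are shown first, since each read behind the values below crossed such a junction. Each line gives the last 15 bases of the last exon in lower case and the first 15 bases of the first exon in capitals, 5′ to 3′ on the strand of the gene, from the RefSeq genome of Sscrofa11.1. The first 6 were higher at 28d and the last 4 lower.
LOC100516957 (circRNA_21182, exons 2 to 6): cagagagttgtgacgCCTCAGGACTCTTGC
EIF2AK2 (circRNA_24923, exons 5 to 8): gtcctatctccagtgGCAAATAGTTCTTCA
ANTXR2 (circRNA_36346, exons 4 to 7): ggaataattaattctAGGCAAAATCAGTGA
EPSTI1 (circRNA_06645, exons 2 to 5): attcagagagagaagCACAGGCGCATATAC
SUSD3 (circRNA_23740, exons 2 to 4): ccacagcttcaccacGCATGTGTGTGCAAG
HERC6 (circRNA_36152, exons 20 to 22): agaaaaaattcctctATATACTGGGACAAA
CCT3 (circRNA_26742, exons 5 to 8): aaaggagaaagccagATTCAAGTACAGCAT
ZZZ3 (circRNA_31822, exons 2 to 4): gaaacacaacaaagaATACCAAGTTGTGCT
CCT3 (circRNA_26745, exons 5 to 11): aaagagattctctcgATTCAAGTACAGCAT
WDR33 (circRNA_15747, exons 2 to 7): aaagaattctccgagTGTCCTAGAACGAAA
The capitals of the 2 CCT3 circRNAs are identical, since both loops start at exon 5 and differ in the exon that closes them. The loops of ZZZ3 and WDR33 start in the 5′ untranslated region of their gene and end in its coding sequence, and the other 8 start and end in coding sequence.

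Of the 3000 circRNAs, 38 were higher at 28d than at 1d and 9 were lower (edgeR quasi-likelihood test, Benjamini-Hochberg adjusted p under 0.05 with a 2-fold minimum change). These calls amount to 1.27% and 0.300% of the circRNAs tested, 1.57% in all. At an unadjusted p under 0.05 there were 298 higher and 89 lower. Scaling moved this balance: with library totals of the table as the depth it was 25 higher and 14 lower, and with sequenced clean reads as the depth 429 higher and 2 lower. The count of rises was 15 with 28d replicate 1 left out, and 14 and 23 with 1d replicate 1 or 2 left out. The count of falls was 5 with 28d replicate 1 or 3 left out and also 5 with 1d replicate 1 left out. Over the whole table the median log2 fold change was 0.17 with TMM scaling and 0.96 with clean reads, and every fold change below is on the TMM scale. Among the 26 rises with reads at 1d the log2 fold change ran from 1.03 to 4.98, and among the 7 falls with reads at 28d from -2.14 to -1.15. The other 12 rises were listed at 0 in all 1d libraries and the other 2 falls at 0 in all 28d libraries. Over all 3000 circRNAs 68 were listed at 0 in all 1d libraries and 2 in all 28d libraries. Each circRNA of the table has reads in at least 16 of the 24 libraries, so one confined to 1d could not be in it. The part of this selection in the balance of rises and falls was not tested. Since the table holds no count of 1, a library listed at 0 may hold 0 or 1 read. For a stage listed at 0 the expected total over its 3 libraries is at most 7 reads (95% limit, 6.43 rounded up). Fold changes against such a stage are given as lower bounds from that floor.

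**Figure D1:**
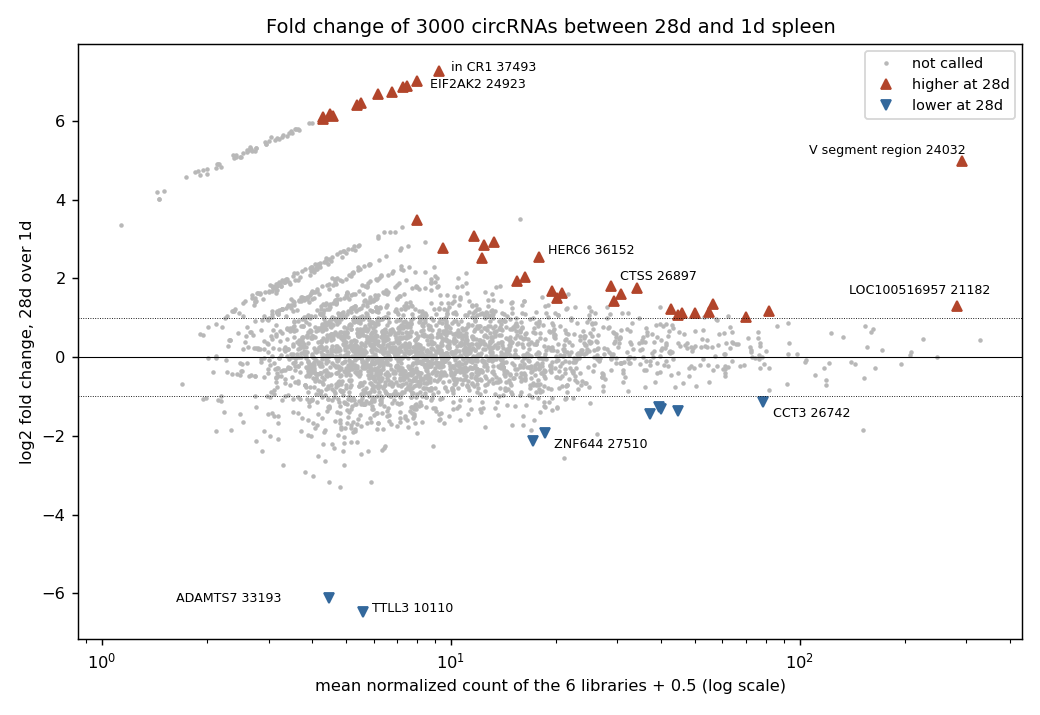
Log2 fold change of each of the 3000 circRNAs between 28d and 1d spleen (vertical axis) against its mean normalized count over the 6 libraries plus 0.5 (horizontal axis, log scale). Triangles mark the 38 circRNAs higher and the 9 lower at 28d, dotted lines the 2-fold threshold, and the narrow upper band holds circRNAs listed at 0 in all 1d libraries, whose fitted values are not bounds.

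The circRNAs of EIF2AK2, EPSTI1, HERC6, ZNFX1 and PIAS1 are described together for the known functions of their hosts, a grouping made after their values were seen, and of these only EIF2AK2 and HERC6 are in the list of innate genes tested as hosts. CircRNA_24923 comes from EIF2AK2 (chr3:103051982-103055415, plus strand), the kinase known as PKR that binds double-stranded RNA and stops translation in infected cells. Its normalized counts (counts scaled to a common effective library size) were 12.5, 12.3 and 20.3 in 28d spleens, against 0 in each of the 3 1d spleens. The 28d level was higher by at least 3.67-fold (adjusted p = 0.00455). CircRNA_06645 comes from EPSTI1 (chr11:24138266-24146998, plus strand), a gene induced by interferon. It had 12.5, 6.14 and 19.04 normalized counts at 28d, against 0 in all 3 libraries at 1d, at least 2.99-fold higher (adjusted p = 0.00455). No 28d library overlapped a 1d library for either circRNA, and both calls were kept without each of the 6 libraries in turn. With all libraries thinned to the lowest total, the adjusted p was 0.135 for EIF2AK2 and 0.0702 for EPSTI1.

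HERC6, an interferon-induced ubiquitin ligase of the HERC family, gave 2 of the called circRNAs. CircRNA_36152 (chr8:130598412-130600711, minus strand) had 40.4, 24.6 and 24.1 normalized counts at 28d, against 3.98, 4.94 and 6.03 at 1d, a log2 fold change of 2.53 ± 0.54 (SE, adjusted p = 0.00455). All 28d libraries stood above all 1d libraries, and the call was kept without each of the 6 libraries but not after thinning (adjusted p = 0.0672). CircRNA_36156, from exons 18 to 19, had 20.2, 2.63 and 17.8 at 28d, and it was listed at 0 in each 1d library (at least 3.24-fold higher, adjusted p = 0.00784). The second 28d library was far below the other two. Its call was lost in some fits that left 2 pigs in a stage. Leaving out 28d replicate 1, 1d replicate 1 or 1d replicate 2 gave an adjusted p of 0.0544, 0.0541 and 0.0525.

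ZNFX1 encodes a helicase-like zinc finger protein that senses viral double-stranded RNA. Its circRNA_19169 (exons 11 to 12) had 54.8, 30.7 and 71.1 normalized counts at 28d, against 9.95, 19.8 and 15.1 at 1d (log2 fold change 1.76 ± 0.40 SE, adjusted p = 0.00823). The libraries of the stages did not overlap. The adjusted p was 0.0525 without 28d replicate 3 and 0.0778 without 1d replicate 1. PIAS1, a SUMO ligase, had a circRNA (circRNA_02707) at 78.8, 48.3 and 78.7 at 28d, against 15.9, 49.4 and 27.1 at 1d. The PIAS1 values of the stages overlapped, although the test called it (log2 fold change 1.12 ± 0.28 SE, adjusted p = 0.0147). Leaving out 28d replicate 1 or 3 gave an adjusted p of 0.107 and 0.0648, and leaving out 1d replicate 1 or 3 gave 0.176 and 0.0674.

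When counts were summed per host gene, 43 hosts were higher and 14 lower at 28d, which is 2.57% and 0.836% of the 1675 hosts tested (adjusted p under 0.05, no fold change minimum). With library totals as the depth the split was 22 and 18, and with clean reads 423 and 2. The hosts that rose numbered 26 with 28d replicate 1 left out, and 26 and 28 with 1d replicate 1 or 2 left out. Those that fell numbered 6 and 8 with 28d replicate 1 or 3 left out and 5 with 1d replicate 2 left out. Of a list of complement, cytokine and innate receptor genes 16 were measured, and 3 of them rose, 0 fell and 13 did not pass. The median log2 fold change of the 16 was 1.09, and 1.05 with the gene listed at 0 at 1d set to its bound, beside 0.18 over all hosts. In 14 of the 16 the value was positive, against 60.2% of all hosts. The 3 rises were EIF2AK2 (log2 fold change 3.97 ± 0.70 SE, adjusted p = 0.000313), HERC6 (2.996 ± 0.54, adjusted p = 0.00106) and PARP14, an interferon-induced ADP-ribosyltransferase listed at 0 at 1d (adjusted p = 0.038). The first 2 are also members of the kinase and ubiquitin lists, and their host calls were kept in all 15 alternatives. The PARP14 call was not kept without 28d replicate 1 (adjusted p = 0.188) or without 1d replicate 1, 2 or 3 (0.11, 0.108 and 0.0763).

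Other members of the innate list had values that did not pass the test. DDX58, the RIG-I sensor of viral RNA, had 6.73, 5.27 and 25.4 normalized counts at 28d, against 0, 0 and 3.01 at 1d (log2 fold change 3.29 ± 1.16 SE, adjusted p = 0.11). CLEC2D, a ligand of an inhibitory NK cell receptor, had 7.69, 7.02 and 10.2 at 28d, against 0, 3.29 and 0 at 1d (adjusted p = 0.155). NLRP3, the inflammasome sensor, lay at 4.81, 3.51 and 2.54 at 28d, against 9.95, 8.23 and 3.01 at 1d, with overlapping libraries. Summed over the list, the 28d libraries held 235, 177 and 242.5 normalized counts and the 1d libraries 67.7, 77.4 and 105, so that no 28d library fell within the 1d range. The 13 members that were not called summed to 129, 119 and 151 at 28d, against 53.8, 72.4 and 99.4 at 1d. Sums could also lie apart in lists with a median near that of all hosts. The chromatin regulators (median 0.17) held 3333, 3512 and 3458 at 28d, against 2737, 3192 and 3056 at 1d.

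**Figure D2:**
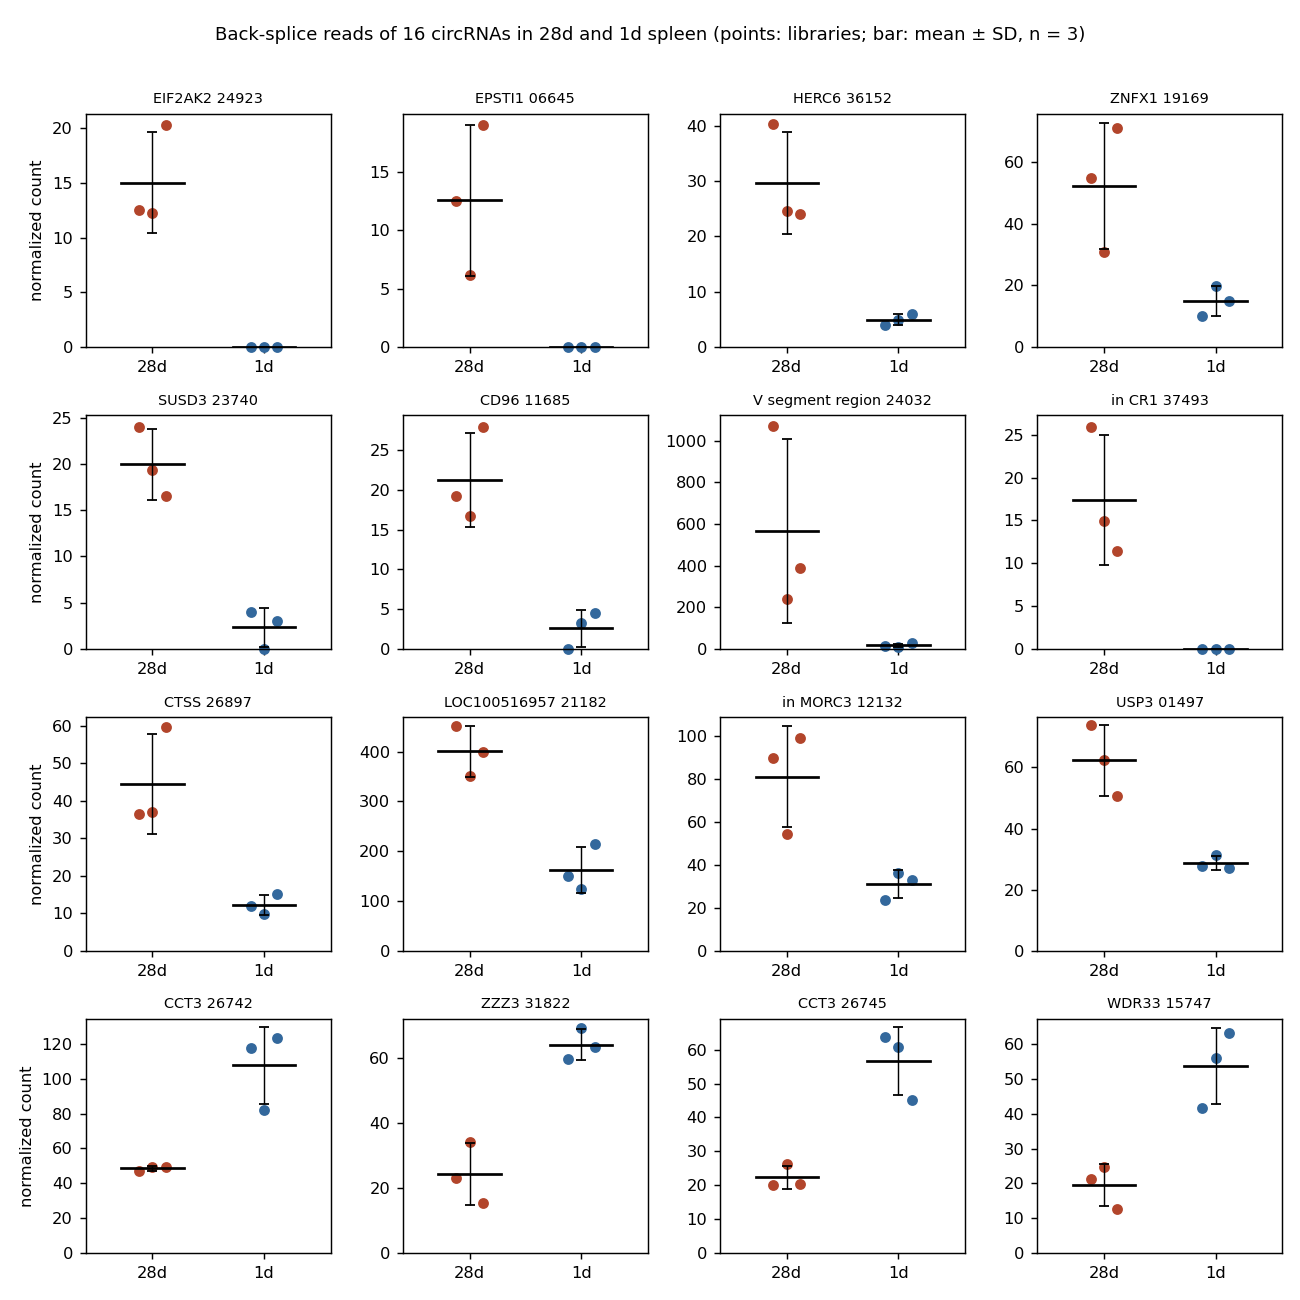
Normalized back-splice counts (vertical axes, from 0) of 16 circRNAs in the 3 libraries of 28d (left) and of 1d (right), with the mean and SD as bars. In the upper 12 panels all 28d libraries lie above all 1d libraries, and in the lowest 4 panels, the circRNAs of CCT3, ZZZ3 and WDR33, all lie below.

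One circRNA of a T and NK cell host and one of a B and plasma cell host were called higher at 28d. CD96, an adhesion receptor of T and NK cells, had a circRNA of exons 4 to 5 (circRNA_11685, chr13:148164225-148168420, minus strand). Its normalized counts were 19.2, 16.7 and 27.9 at 28d, against 0, 3.29 and 4.52 at 1d, a log2 fold change of 2.85 ± 0.66 (SE, adjusted p = 0.00953). The stages did not overlap. The adjusted p was 0.0778 without 1d replicate 1 and 0.0525 without 1d replicate 2. SUSD3, a sushi domain membrane protein in the B and plasma cell list, had a circRNA (circRNA_23740, chr3:42614251-42617268) at 24.03, 19.3 and 16.5 at 28d, against 3.98, 0 and 3.01 at 1d. That is a log2 fold change of 3.08 ± 0.66 (SE, adjusted p = 0.00455), kept without each library but not after thinning (adjusted p = 0.0672).

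The circRNA with the most reads among the rises was circRNA_24032 (chr3:57235342-57272274, plus strand). It overlaps 2 genes that RefSeq annotates as variable (V) segments, which lymphocytes join to other segments to build antigen receptors, and 2 long non-coding RNA genes, and its ends match no exon ends of a single gene. It had 1112, 272 and 308 raw counts at 28d, against 7, 7 and 18 at 1d. Its log2 fold change was 4.98 ± 0.94 (SE, adjusted p = 0.00938), and 4.13 without 28d replicate 1, which held more reads than the other 2 together. The 30 bases at its donor end have 2 further exact copies within 500 kb upstream, so the source of its reads is uncertain. Only 4 of the 3000 junctions have such a copy. Leaving out 28d replicate 1, 1d replicate 1 or 1d replicate 2 gave an adjusted p of 0.0508, 0.061 and 0.0525, and a fit of the 6 libraries alone gave 0.154.

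Summed levels per library were set side by side for each cell type list. Calls in these lists are read beside the 2.57% of all hosts that rose and the 0.836% that fell. The B and plasma cell list (8 hosts measured) held 160, 127 and 160 normalized counts at 28d, against 69.7, 54.3 and 78.4 at 1d, with 1 rise, SUSD3, and 7 members that did not pass. Those 7 alone held 136, 108 and 143 at 28d, against 65.7, 54.3 and 75.3 at 1d. CD22, an inhibitory receptor of B cells, had 24.99, 28.97 and 49.5 at 28d, against 13.9, 14.8 and 13.6 at 1d (log2 fold change 1.26 ± 0.43 SE, adjusted p = 0.0948), and BANK1, a B cell scaffold protein, 13.5, 4.39 and 8.89 at 28d, against 0, 0 and 3.01 at 1d (adjusted p = 0.0722). The T and NK cell list (5 hosts) held 65.4, 57.1 and 62.2 at 28d, against 37.8, 36.2 and 30.1 at 1d, with 1 rise, CD96, whose host value had an adjusted p of 0.0587 when 1d replicate 1 was left out. Without CD96 the sums overlapped, at 46.1, 40.4 and 34.3 at 28d, against 37.8, 32.9 and 25.6 at 1d. ARHGAP15 of that list, a Rac regulator, had 12.5, 15.8 and 8.89 at 28d, against 0, 4.94 and 0 at 1d (adjusted p = 0.066). TOX and TC2N, both T cell genes, lay at -0.37 and -0.01 on the log2 scale and were not called.

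The erythroid list (5 hosts) ran the other way, with 69.2, 107 and 85.1 summed normalized counts at 28d, against 161, 145 and 119 at 1d. None of its 5 hosts passed the test in either direction. TFRC, the transferrin receptor that brings iron to red cell precursors, had 10.6, 29.8 and 36.8 at 28d, against 59.7, 52.7 and 31.6 at 1d (log2 fold change -0.90 ± 0.56 SE, adjusted p = 0.477), with overlapping libraries. The stromal, smooth muscle and endothelial list (5 hosts) summed to 96.1, 61.4 and 66.0 at 28d, against 113, 123 and 116 at 1d, again with no member called. The median log2 fold change was -0.90 for the erythroid list and -0.69 for the stromal list on the TMM scale, but with clean reads as the depth it was -0.12 and 0.11. In whole spleen, fewer cells of a type and less RNA per cell cannot be told apart. The summed levels of the B cell, erythroid and stromal lists thus did not overlap between the stages. Called members were 1 of 8, 0 of 5 and 0 of 5, beside 2.57% higher and 0.836% lower over all hosts. The part of these summed levels in the other results was not tested. Such sums were not particular to cell type lists. Those of the innate, cell cycle, chromatin, ubiquitin, membrane traffic, kinase and metabolism lists did not overlap either. Without called hosts the cell cycle sums overlapped, at 561, 728 and 785 at 28d, against 778, 742 and 791 at 1d. The kinase sums then overlapped too, at 1798, 1742 and 1634 at 28d, against 1481, 1455 and 1688 at 1d. With all members kept, the sums of the macrophage, DNA replication, RNA processing, small GTPase, cytoskeleton, centrosome, transcription factor and transporter lists did overlap. The pancreas acinar list, for tissue that lies against the spleen, had 0 of 21 genes among the hosts.

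Myeloid hosts were divided. CTSS, the cathepsin that trims the invariant chain of MHC class II in antigen-presenting cells, had a circRNA of exons 3 to 4 (circRNA_26897, chr4:98422323-98423402, plus strand). It stood at 36.5, 36.9 and 59.7 normalized counts at 28d, against 11.9, 9.88 and 15.1 at 1d (log2 fold change 1.81 ± 0.39 SE, adjusted p = 0.00455). The call was kept in all 15 alternatives. Within CR1, the complement receptor that clears opsonized particles, circRNA_37493 lies in an intron (chr9:68044952-68045673, plus strand). It had 25.9, 14.9 and 11.4 at 28d and was listed at 0 in all 1d libraries, at least 4.53-fold higher (adjusted p = 0.000462), also kept in all 15 alternatives. Since its ends do not match exon ends of 1 gene, it was counted in no host list. Which cells it came from was not tested.

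LOC100516957, annotated as adhesion G protein-coupled receptor E2-like, gave the smallest p of all circRNAs. Human ADGRE2 is a receptor of myeloid cells. CircRNA_21182 (chr2:63857472-63862039, plus strand) had 452, 350 and 399 normalized counts at 28d, against 151, 123 and 214 at 1d, a log2 fold change of 1.29 ± 0.21 (SE, adjusted p = 0.000462), kept in all 15 alternatives. Both stages sat high compared with most circRNAs and did not overlap. In the macrophage, monocyte and granulocyte list (8 hosts) CTSS was the 1 rise, where 2.57% of all hosts rose. NR1H3, the LXR alpha receptor of splenic macrophages, had 119, 88.7 and 166 at 28d, against 149, 166 and 225 at 1d (adjusted p = 0.138), and the summed list overlapped between stages, at 207, 177 and 286 at 28d, against 195, 239 and 279 at 1d.

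Host genes for ubiquitin ligases and deubiquitinases, enzymes that attach or remove the tag that marks proteins for degradation or signalling, gave 6 rises and 0 falls of 86 measured, where 2.57% of all hosts rose and 0.836% fell. The median log2 fold change of the 86 was 0.22, beside 0.18 over all hosts, and 80 members did not pass. MYCBP2, a very large ubiquitin ligase, had 62.5, 50.9 and 53.3 summed normalized counts at 28d, against 19.9, 3.29 and 15.1 at 1d (log2 fold change 2.15 ± 0.35 SE, adjusted p = 0.000103). USP3, a deubiquitinase of histone H2A, had 88.4, 79.9 and 68.6 at 28d, against 39.8, 34.6 and 34.7 at 1d (1.13 ± 0.24, adjusted p = 0.00219). Neither pair of stages overlapped, and both host calls were kept without each library, the USP3 call with an adjusted p of 0.124 after thinning. HERC6 also rose.

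The other 3 were RNF115 (log2 fold change 0.85 ± 0.21 SE, adjusted p = 0.0123), USP24 (1.00 ± 0.27, 0.0233) and CUL5 (1.84 ± 0.53, 0.0357), a ligase, a deubiquitinase and a cullin scaffold. These calls were lost in some fits that left out a single library. RNF115 had an adjusted p of 0.188 without 28d replicate 1 and 0.0579 without 1d replicate 2, and USP24 had 0.127 without 28d replicate 3 and 0.0547 and 0.0973 without 1d replicate 1 or 2. CUL5 lost its call without 28d replicate 1, 2 or 3 (0.0814, 0.0623 and 0.0905) and without 1d replicate 1 or 2 (0.101 and 0.224).

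The host with the smallest adjusted p was DENND1B, an activator of Rab GTPases that takes part in the uptake of T cell receptors. Its 6 circRNAs summed to 78.8, 90.4 and 62.2 normalized counts at 28d, against 15.9, 18.1 and 22.6 at 1d (log2 fold change 2.02 ± 0.31 SE, adjusted p = 4.92e-05, kept in all 15 alternatives). It was the 1 rise among 82 small GTPase regulators, of which 1 fell, where 2.57% of all hosts rose and 0.836% fell. The 2 circRNAs of DENND1B called on their own, circRNA_04854 (exons 12 to 15) and circRNA_04863 (exons 10 to 13), had log2 fold changes of 2.02 ± 0.48 and 1.93 ± 0.49 (SE, adjusted p = 0.0096 and 0.02). Single libraries decided these 2 calls. Leaving out 28d replicate 1, 1d replicate 1 or 1d replicate 3 gave circRNA_04854 an adjusted p of 0.0582, 0.0584 and 0.0727, and that of circRNA_04863 was 0.0544 and 0.0551 without 28d replicate 1 or 2 and 0.0778 and 0.142 without 1d replicate 1 or 2.

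**Figure D3:**
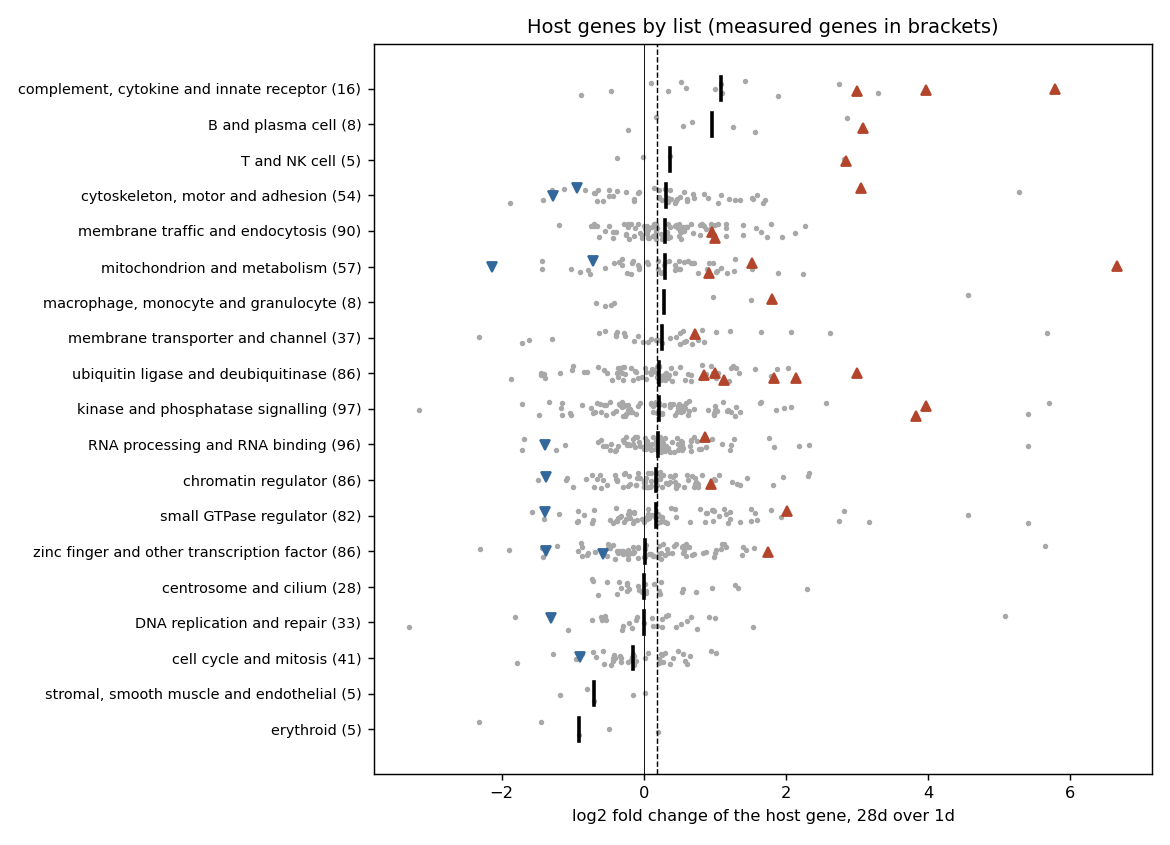
Log2 fold change (28d over 1d) of the host genes in each gene list with at least 5 measured members, with grey points for hosts that were not called, triangles for hosts called higher or lower, bars for the list medians and a dashed line for the median of all hosts (0.18). The innate list has its median at 1.09 and 3 calls to the right, while the erythroid list lies at -0.90 with no call.

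Among the other named rises, circRNA_12132 overlaps exons of MORC3, an ATPase of nuclear bodies that takes part in antiviral defence, without matching its exon ends. It had 89.4, 54.4 and 99.0 normalized counts at 28d, against 23.9, 36.2 and 33.1 at 1d (log2 fold change 1.36 ± 0.28 SE, adjusted p = 0.00455, kept in all 15 alternatives). FAM49B, a regulator of RAC1 and actin, had a circRNA (circRNA_25636, exons 4 to 6) at 15.4, 14.9 and 3.81 at 28d, listed at 0 at 1d, at least 3.07-fold higher (adjusted p = 0.00513). CircRNA_10904, in an intron of the uncharacterized LOC106505748, had 9.61, 7.02 and 25.4 at 28d, against 0 at 1d, at least 3.24-fold higher (adjusted p = 0.00455). The FAM49B circRNA and circRNA_10904 were kept without each library, but with adjusted p of 0.135 and 0.0672 after thinning.

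ANTXR2, a surface receptor for extracellular matrix that anthrax toxin also uses, had circRNA_36346 at 171, 85.1 and 82.5 normalized counts at 28d, against 39.8, 42.8 and 66.3 at 1d (log2 fold change 1.17 ± 0.25 SE, adjusted p = 0.00455). Its first 28d library was well above the others. Without that library (28d replicate 1) the log2 fold change was 0.74 and the adjusted p 0.165, and without 1d replicate 1 the adjusted p was 0.0541. SLC38A9, the lysosomal arginine sensor upstream of mTORC1, had circRNA_17615 at 41.3, 49.2 and 35.5 at 28d, against 11.9, 23.0 and 12.1 at 1d (1.42 ± 0.32, adjusted p = 0.00784). Without 1d replicate 1 or 3 its adjusted p was 0.0669 and 0.0517.

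The PRPSAP2 circRNA_08862 and the USP3 circRNA_01497 each start at exon 2. PRPSAP2, a partner of the enzyme that makes phosphoribosyl pyrophosphate for nucleotides, had this circRNA at 92.3, 60.6 and 73.6 at 28d, against 31.9, 34.6 and 34.7 at 1d (log2 fold change 1.16 ± 0.26 SE, adjusted p = 0.00784). The USP3 circRNA stood at 74.0, 62.3 and 50.8 at 28d, against 27.9, 31.3 and 27.1 at 1d (1.12 ± 0.26, adjusted p = 0.0092). Neither pair of stages overlapped. Without 28d replicate 1 the adjusted p was 0.08 for PRPSAP2 and 0.0776 for USP3, and without 1d replicate 1 it was 0.0541 for both.

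A further 20 rises, outside the rule for named circRNAs and listed after their values were seen, included PIAS1 and both DENND1B circRNAs. By host function they were sorting nexins and autophagy (SNX6, SNX13, RUBCNL), ubiquitin, kinase or phosphatase signalling (MYCBP2, PPP3CC and a circRNA within TLK1), actin and the cytoskeleton (SCIN, FRMD4B, ACTR10), glycosylation (B4GALT6, SLC35D2), RNA binding and the ribosome (PSPC1, RPSA), and TMEM154, WDR7, LOC106506475 and circRNA_12292, which lies in no annotated gene. Each of these 20 calls was lost without at least 2 of the 6 libraries. The circRNA of SNX6, a subunit of the retromer that recycles receptors, had 93.2, 95.7 and 91.4 normalized counts at 28d, against 47.8, 47.7 and 42.2 at 1d, the rise closest to the 2-fold threshold (log2 fold change 1.03 ± 0.25 SE, adjusted p = 0.0141). Its 28d and 1d libraries were tight and far apart, but its adjusted p was 0.0531 without 28d replicate 1 and 0.0607, 0.0525 and 0.0549 without 1d replicate 1, 2 or 3. The SLC35D2 circRNA had 43 reads at 28d, against 2 at 1d, a ratio of 12.8 with a 95% exact counting interval of 3.35 to 109 that covers counting error only. Its adjusted p was 0.165 and 0.0575 without 28d replicate 1 or 2 and 0.159 and 0.107 without 1d replicate 2 or 3.

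The 9 falls were circRNAs of 8 host genes. CCT3, a subunit of the chaperonin that folds actin and tubulin, gave 2. CircRNA_26742 (chr4:93738637-93747422, plus strand) had 47.1, 49.2 and 49.5 normalized counts at 28d, against 117, 82.3 and 124 at 1d (log2 fold change -1.15 ± 0.23 SE, adjusted p = 0.00455). CircRNA_26745 had 20.2, 26.3 and 20.3 at 28d, against 63.7, 60.9 and 45.2 at 1d (-1.32 ± 0.30, adjusted p = 0.00784). The libraries of the stages did not overlap in either. Without 1d replicate 3 the log2 fold change of circRNA_26742 was -0.99, just inside 2-fold, and the adjusted p of circRNA_26745 was 0.0531 without 28d replicate 1 and 0.0541 without 1d replicate 1.

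ZZZ3, a histone reader in the ATAC complex, had circRNA_31822 (chr6:135651327-135660627, plus strand) at 23.1, 34.2 and 15.2 normalized counts at 28d, against 59.7, 69.1 and 63.3 at 1d (log2 fold change -1.37 ± 0.29 SE, adjusted p = 0.00455). The call was kept without each library. WDR33, the subunit of the polyadenylation machinery that reads the AAUAAA signal, had circRNA_15747 (chr15:59562524-59570339, plus strand) at 21.1, 24.6 and 12.7 at 28d, against 41.8, 56.0 and 63.3 at 1d (-1.44 ± 0.32, adjusted p = 0.00784). Its adjusted p was 0.0525 without 28d replicate 3 and 0.0577 without 1d replicate 3. With clean reads as the depth none of the 4 circRNAs of CCT3, ZZZ3 and WDR33 passed, with log2 fold changes of -0.34, -0.49, -0.53 and -0.61.

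The other 5 falls had fewer reads or were lost when single libraries were left out. TTLL3, a tubulin glycine ligase, had circRNA_10110 listed at 0 at 28d, against 9.95, 11.5 and 9.04 at 1d (at least 4.30-fold lower, adjusted p = 0.00938, and 0.0546 without 28d replicate 1). ADAMTS7, a metalloproteinase of the ADAMTS family, had circRNA_33193 at 0 at 28d, against 7.96, 9.88 and 6.03 at 1d (at least 3.35-fold lower, adjusted p = 0.0273). Its adjusted p was 0.118, 0.0906 and 0.0688 without 28d replicate 1, 2 or 3 and 0.0698 and 0.09 without 1d replicate 1 or 2. TMX1, a thioredoxin-related protein of the endoplasmic reticulum, had circRNA_02977 at 0, 10.5 and 7.62 at 28d, against 33.8, 34.6 and 13.6 at 1d (log2 fold change -2.14 ± 0.59 SE, adjusted p = 0.0426). That of TMX1 was 0.191 and 0.0796 without 28d replicate 1 or 3 and 0.175 and 0.189 without 1d replicate 1 or 2. AFDN, the afadin of cell junctions, had circRNA_00031 at 28.8, 25.5 and 14.0 at 28d, against 33.8, 44.4 and 87.4 at 1d, with its highest value in 1 pig (-1.27 ± 0.33, adjusted p = 0.0239). Without that library (1d replicate 3) the log2 fold change of AFDN was -0.72 and the adjusted p 0.362, and without 28d replicate 3 it was 0.132. The ninth fall came from ZNF644, a zinc finger partner of histone methyltransferases.

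Proliferation hosts are read against the same shares of all hosts, 2.57% higher and 0.836% lower, and their single calls are a description only. Of 41 cell cycle and mitosis genes 0 rose and 1 fell, CDK13, a kinase of transcription elongation (log2 fold change -0.90 ± 0.23 SE, adjusted p = 0.0182). Of 33 DNA replication and repair genes 0 rose and 1 fell, MCM6, a subunit of the replicative helicase. MCM6 had 6.73, 26.3 and 16.5 summed normalized counts at 28d, against 29.9, 51.0 and 42.2 at 1d (-1.30 ± 0.37, adjusted p = 0.0333). The median was -0.15 for the cell cycle list, beside 0.18 for all hosts, and with clean reads as the depth 0.62 beside 0.97. With clean reads CDK13 was at -0.03 (adjusted p = 0.947) and MCM6 at -0.51 (adjusted p = 0.391). CDK13 had an adjusted p of 0.12 and 0.166 without 28d replicate 1 or 3 and 0.0554 and 0.0896 without 1d replicate 1 or 2, and MCM6 0.242 and 0.0798 without 28d replicate 1 or 3 and 0.183 and 0.0737 without 1d replicate 2 or 3.

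The other lists held 0 to 5 calls each, and with shares of 2.57% higher and 0.836% lower over all hosts these counts are given as a description only. Membrane traffic had 2 rises and 0 falls of 90 (SNX6 and SNX13), kinase and phosphatase signalling 2 and 0 of 97 (EIF2AK2 and PPP3CC, a catalytic subunit of calcineurin), and mitochondrion and metabolism 3 and 2 of 57. Chromatin regulators had 1 and 1 of 86 (MORC3 and ZZZ3), RNA processing and binding 1 and 1 of 96 (PTBP3, a splicing repressor, and WDR33), cytoskeleton and adhesion 1 and 2 of 54, transcription factors 1 and 2 of 86, transporters 1 and 0 of 37, and centrosome and cilium 0 and 0 of 28. The smallest adjusted p of the centrosome list was 0.0915, for CEP63, a centriole protein. Leaving out 28d replicate 1 ended the host calls of SNX13, MORC3, PTBP3 and SLC38A9 (adjusted p = 0.126, 0.12, 0.141 and 0.126), and leaving out 1d replicate 2 ended that of PPP3CC (0.0579). SNX13, PTBP3 and SLC38A9 were also not called without 28d replicate 2 (0.0623, 0.0571 and 0.113) or 1d replicate 1 (0.209, 0.194 and 0.231), SNX13 without 28d replicate 3 or 1d replicate 3 (0.0685 and 0.179), SLC38A9 without 1d replicate 2 (0.0896), and MORC3 without 28d replicate 3 (0.192) or 1d replicate 1, 2 or 3 (0.0703, 0.0876 and 0.132). B4GALT6, the lactosylceramide synthase of the metabolism list, had 10.6, 15.8 and 7.62 at 28d and was listed at 0 at 1d (adjusted p = 0.00215, kept in all 15 alternatives).

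Of the 23 hosts that gave a called circRNA and had others in the table, 15 had circRNAs of 1 sign only and 8 had both signs. These hosts were chosen for a called circRNA, their circRNAs can share exons, most of the others did not pass the test, and 1756 of all 3000 circRNAs were positive. All 6 circRNAs of DENND1B were positive (log2 fold change 1.25 to 2.65), as were all 6 of MYCBP2 (0.23 or more) and all 10 of PRPSAP2 (0.00 to 1.79). Both circRNAs of EIF2AK2 and of EPSTI1 and all 3 of HERC6 were positive as well. In CCT3 5 of 7 were negative, and the 2 called ones both started at exon 5, whereas circRNA_26741, which also starts at exon 5 but ends at exon 7, lay at 0.04 ± 0.79 (SE). PSPC1 had 4 positive and 3 negative circRNAs, WDR7 2 and 1, and SNX13 1 and 1. In ZNF644 the directions split as well. CircRNA_27510, a loop of 2 exons and 3644 bases, had 5.77, 9.66 and 6.35 normalized counts at 28d, against 33.8, 34.6 and 18.1 at 1d (log2 fold change -1.94 ± 0.49 SE, adjusted p = 0.0162), while circRNA_27505, a loop of 2 other exons and 218 bases that lies upstream, had a log2 fold change of 1.26 ± 0.37 (adjusted p = 0.0637). The ZNF644 circRNA_27510 had an adjusted p of 0.107 and 0.0598 without 28d replicate 1 or 3, and 0.086 and 0.109 without 1d replicate 1 or 2.

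Whether a circRNA took another share of its host's back-splice reads was tested for the 1786 circRNAs of the 613 hosts with 2 or more. None passed (0 of 1786, 0.00%, edgeR's diffSpliceDGE), with 57 at an unadjusted p under 0.05 and a smallest adjusted p of 0.124. At host level ZNF644 and PSPC1 passed (adjusted p = 0.0319 and 0.0408). CircRNA_27510 made up 7.50, 15.5 and 9.62% of the ZNF644 back-splice reads at 28d, against 42.5, 46.7 and 36.4% at 1d. CircRNA_05970 of PSPC1, a paraspeckle protein, made up 4.08, 4.35 and 7.46% at 28d, against 0% at 1d, where 60, 92 and 77 reads were counted for the host. The shares of each stage were apart in both hosts. The next 3 by p were circRNAs of WDR7 (13.8, 9.72 and 13.2% at 28d, 0% at 1d), MYO9A and SNRNP40, each with an adjusted p of 0.355. With 28d replicate 2 left out the count of circRNAs that passed was 1. In simulated counts with the sizes of this comparison, circRNAs shifted by log2 3 were recovered for 12 of 77, and those shifted by log2 1 for 0 of 68. Of 2800 unshifted circRNAs 11 were called, but these 2800 include circRNAs that the share test does not cover. The 11 can include other circRNAs of a shifted host, whose share of the host moved too. With no circRNA shifted, 0 of 3000 were called, of which 1786 were covered by the share test.

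The structure of the called circRNAs was set beside that of the table. Of the 38 rises 32 matched exon ends of 1 gene and the median length of these was 328 bases, and all 9 falls did, with a median of 680 bases, against 432 bases over 2844 circRNAs of the table. Their median GC content was 45.1% in the rises and 44.7% in the falls, against 43.3%. The loop started at exon 2 in 15 of the 32 rises (46.9%) and 3 of the 9 falls, against 31.96% of all. Rises and falls had a median of 15.4 and 36.6 normalized counts over the 6 libraries, against 6.80 over all circRNAs. The 28d and 1d libraries did not overlap in 36 of 38 rises and 9 of 9 falls, beside 18.4% of all circRNAs. These are descriptions of the calls, with no test.

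Across the 8 stages, from 1d to 180d, the EIF2AK2 circRNA averaged 0, 2.19 ± 1.9, 5.49 ± 4.0, 6.95 ± 1.5, 15.03 ± 4.6 (28d), 8.65 ± 2.7, 11.04 ± 5.9 and 7.58 ± 5.3 normalized counts (SD, n = 3). The CD96 circRNA averaged 2.60 ± 2.3 at 1d, 21.3 ± 5.9 at 28d, against 42.7 ± 7.5 at 180d, and the CCT3 circRNA_26742 averaged 108 ± 22 at 1d, 48.6 ± 1.3 at 28d, against 38.5 ± 9.9 at 180d. The EIF2AK2 mean was highest at 28d, but 28d was not called different from its neighbours. Between 28d and 14d, 21d or 35d, 0 of 3000 circRNAs were called (0.00%) by edgeR and 0 by DESeq2, with 142, 102 and 94 at an unadjusted p under 0.05. Between 28d and 7d 36 were higher and 15 lower (1.70% in all), and with 1d as the base 21d gave 27 higher and 1 lower.

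**Figure D4:**
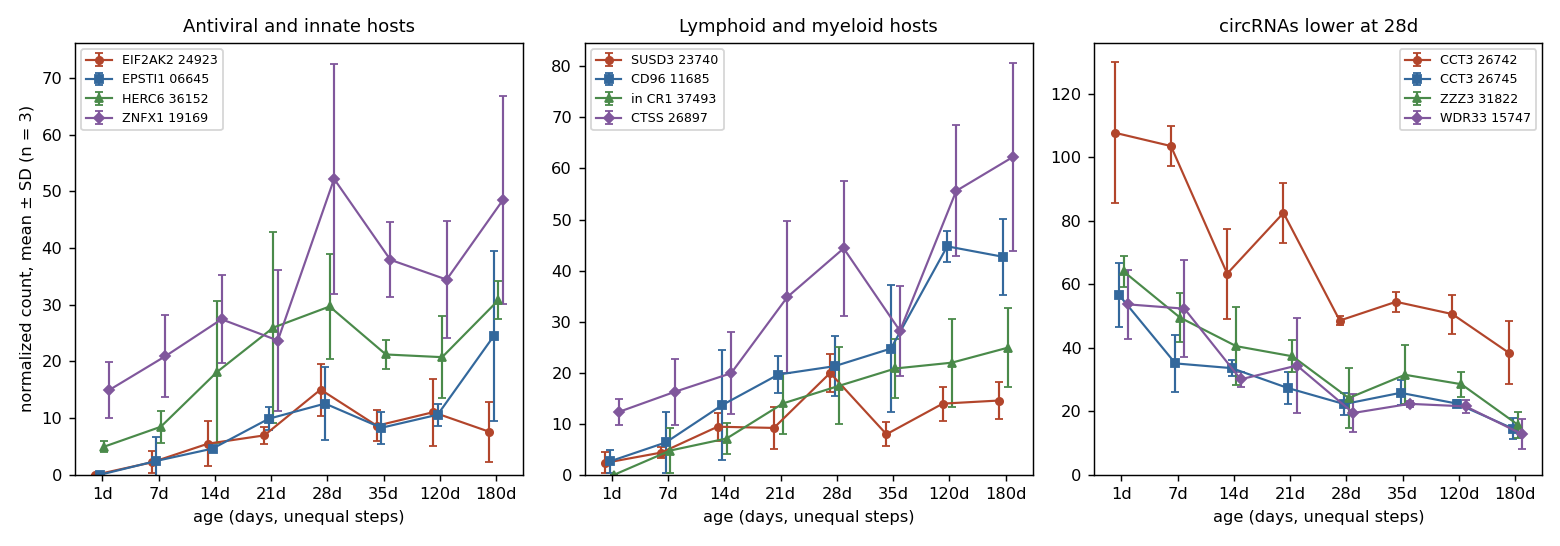
Mean normalized count ± SD (n = 3 pigs) at each of the 8 stages, in order of age with unequal steps, of circRNAs of antiviral hosts, of lymphoid and myeloid hosts, and of circRNAs lower at 28d. The CD96 circRNA has 2.60 at 1d, 21.3 at 28d, against 42.7 at 180d, while the CCT3 circRNA_26742 has 108 at 1d, 48.6 at 28d, against 38.5 at 180d.

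The comparison of 35d with 7d uses none of the same libraries, but its back-splice read totals differed in the same direction as between 28d and 1d. The 35d libraries held 35599, 56086 and 54554 back-splice reads and the 7d libraries 25283, 19174 and 21349. The part of these totals and of scaling in the values below was not tested. Between 35d and 7d 78 of 3000 circRNAs were higher and 52 lower (2.60% and 1.73%). Of the 38 circRNAs that rose between 1d and 28d, all 38 had a positive log2 fold change between 7d and 35d, where 59.2% of all circRNAs did, and 10 were called higher. Of the 9 falls, 8 were negative there and 2 were called lower, TMX1 and WDR33. LOC100516957 had a log2 fold change of 1.23 (adjusted p = 0.000217), TMEM154 2.85 (adjusted p = 9.86e-05) and CD96 1.95 (adjusted p = 0.0229). The circRNAs of EIF2AK2, EPSTI1, HERC6 and ZNFX1 were positive but not called there. They lay at 1.95 for EIF2AK2 (adjusted p = 0.182), 1.61 for EPSTI1 (adjusted p = 0.253) and 0.89 for ZNFX1 (adjusted p = 0.184). The HERC6 circRNA_36152 and circRNA_36156 lay at 1.29 and 1.22 (adjusted p = 0.119 and 0.410). The PIAS1 circRNA, described with them above, was called higher (1.09, adjusted p = 0.0104). The RPSA circRNA was at 0.01 and the ADAMTS7 circRNA at 0.10.

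**Figure D5:**
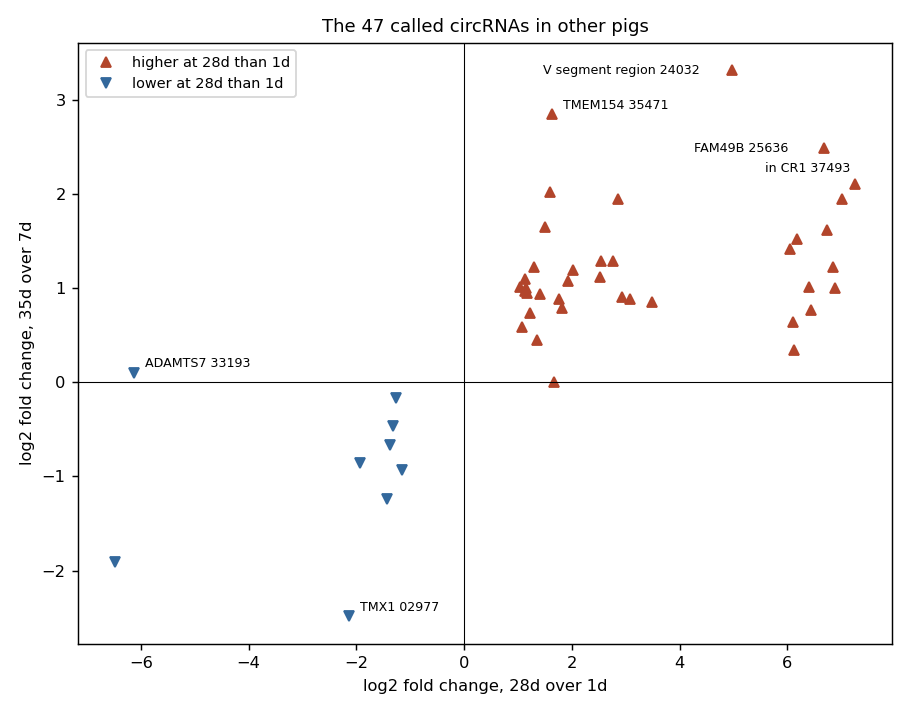
Log2 fold change of the 47 called circRNAs in 28d over 1d (horizontal axis) and in 35d over 7d (vertical axis), 2 comparisons without a shared library. All 38 rises lie above 0 on the vertical axis, the lowest at 0.01 for the RPSA circRNA, and 8 of the 9 falls lie below it. In both comparisons the libraries of the older stage held more back-splice reads.

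Depth differed between the stages. The 28d libraries held 41374, 43851 and 29749 back-splice reads and the 1d libraries 16273, 20930 and 23752, a difference in means of 18006 (exact two-sided permutation test, p = 0.1, the smallest that 3 against 3 allows). Scaled to clean reads (RPM) the values were 420, 405 and 265 at 28d, against 151, 183 and 214 at 1d. CircRNAs with reads numbered 2835, 2875 and 2668 at 28d, against 2232, 2427 and 2549 at 1d (exact permutation p = 0.1). After thinning to the lowest total the numbers were 2163, 2273 and 2201 at 28d, against 2232, 2223 and 2225 at 1d, with overlapping stages (exact permutation p = 0.7). Thinning matched the totals only in part, since counts of 1 were then set to 0, and left 15788, 15756 and 15969 reads at 28d, against 16273, 16091 and 16079 at 1d.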

How the data were processed

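Total RNA of spleen from 24 Meishan pigs was sequenced by the authors, who trimmed reads (FastQC and cutadapt in the labels), mapped with BWA on Sscrofa11.1 and detected back-splices by CIRI2 (TopHat2 is also named). RNase R digestion is in the methods and not in the labels, and the kits described differ between them. The deposited table gives counts of back-splice reads for 3000 circRNAs, not normalized and without counts of 1, each with reads in at least 16 libraries. The table is a selection of the circRNAs detected in the study, by a rule not given in the sources used here, so shares called and numbers with reads refer to this selection. Of all counts 8.72% were 0. Counts were fitted with edgeR 4.0.16 in R 4.3.3 (TMM, robust quasi-likelihood) in 1 model of the 24 libraries and 8 stages, and 28d was contrasted with 1d. Benjamini-Hochberg adjustment ran over every circRNA, or every host gene, tested. SE is the absolute log2 fold change over the square root of F. Normalized counts are counts over effective library size, times the geometric mean of these sizes. The biological coefficient of variation was 30.0%.

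Hosts, exons and sequences came from RefSeq on the same build (ends within 1 base of exon ends of 1 gene), and junctions were searched for 30-base copies within 500 kb. Named were up to 18 rises and 12 falls with the smallest p (9 falls existed), up to 3 hosts for each of 24 gene lists, and the 6 circRNAs with the smallest p for share of host. One of these 6 is not reported here. The members, gene lists and rules were chosen with earlier results of these data known. Other circRNAs and hosts in the text were named after their values were seen. The alternatives were DESeq2 1.42.0 size factors, its Wald test, table totals, clean reads of the study's sequencing table, filterByExpr, a replicate block, 6 libraries only, library GC content, thinning (with counts of 1 set to 0) and leaving out each replicate. On simulated counts for 3000 circRNAs of this comparison, 7 of 63, 30 of 67 and 50 of 70 circRNAs changed by log2 1, 2 and 3 were recovered, with 4 of 2800 unchanged ones called. The pigs of a stage were separate animals. Replicates of a stage differed by more than sampling noise. Intervals and floors cover counting error only.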

Additional observations from a re-analysis of the deposited data

How the results depend on the processing

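The 38 higher and 9 lower circRNAs became 25 and 14 with table totals, 429 and 2 with clean reads and 8 and 7 after thinning. Thinning removes more reads from the 28d libraries, which had larger back-splice totals. When single replicates were left out the counts were 14 to 42 and 5 to 13. The 43 higher and 14 lower hosts became 22 and 18 with table totals, 423 and 2 with clean reads, 20 and 20 after thinning, 24 and 5 in the fit of the 6 libraries alone, and 26 to 63 and 5 to 11 when single replicates were left out. The share test gave 0 to 1 calls when single replicates were left out. Of the 47 calls, 12 were also called at 35d vs 7d, and 34 with clean reads as the depth. The difference in circRNAs with reads was 390.0 per library, and -14.3 after thinning. It ran from 305 to 463 when single replicates were left out. Replicate numbers did not pair the pigs (correlations of deviations within 0.04 of 0), and a replicate block gave 40 higher and 8 lower circRNAs and 38 and 12 hosts. Of the 404 values of the 27 named circRNAs under the alternatives, 332 stayed called, 72 were no longer called and 0 changed direction. 4 of the 47 calls passed in every alternative, and 11 without each of the 6 libraries. The cause of the other changes was not tested. With these back-splice totals small changes were rarely detectable.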
